A study of Canis lupus familiaris with 10 samples.

Results

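Genes for the removal of dying cells and of modified lipids were measured in the neural retina of 5 dogs with primary glaucoma and 5 healthy dogs. The 10 genes were MERTK, AXL and TYRO3 (the TAM receptors), GAS6 and PROS1 (their ligands), MFGE8 (a bridging protein), CD36, MSR1 and MRC1 (scavenger receptors) and FCER1G (a signalling adaptor). Every probe set whose annotation carried 1 of these symbols and no other was taken, which gave 21 of the 42860 probe sets other than array controls, and all 10 genes, of the 15115 that can be named in this way, had at least 1. A probe set counted as expressed when its log2 intensity was above 7 in at least 2 arrays, the definition used in the study. By this definition 10 of the 21 were expressed and 11 lay under the minimum. Both kinds are described, and those under the minimum are marked as such.

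The glaucoma dogs were 2 Shiba Inus aged 5 and 14 years (dogs 1 and 2), 2 Basset Hounds aged 5 and 7 years (dogs 3 and 4) and a Dalmatian aged 9 years (dog 5), all with closed iridocorneal angles and on topical drugs that lower the pressure in the eye. The healthy dogs were 5 Beagles aged 4 years. One eye per dog was used and no RNA was pooled. The study lists lower ages than the sample labels for the older Shiba Inu and for the Dalmatian, and the ages of the labels are used here. No breed occurred in both groups, all glaucoma dogs were older than the healthy dogs, and no such drugs are listed for the healthy dogs. Glaucoma eyes were enucleated from clinic patients, while the healthy dogs were euthanized for unrelated reasons. Breed, age, drugs, tissue source and disease therefore cannot be told apart.

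Cells that die by apoptosis show phosphatidylserine on their surface. GAS6, protein S (PROS1) and MFGE8 bind this lipid and bridge the dying cell to receptors of the phagocyte, the TAM receptor tyrosine kinases for GAS6 and protein S and integrins for MFGE8. In the eye the best known user of this route is the retinal pigment epithelium, which takes up shed photoreceptor outer segments through MERTK, and loss of MERTK leads to photoreceptor degeneration in rats, mice and humans. Microglia and macrophages clear dying neurons and carry scavenger receptors for modified lipoproteins and glycoproteins.

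In glaucomatous retina the scavenger receptors MSR1 and CD36 and the adaptor FCER1G were higher than in healthy retina, with no overlap between the groups. Their probe sets lie under the minimum, so that the fitted folds of 2.86, 2.09 and 1.56 are inexact. Among all probe sets under the minimum, 2.36% had every glaucoma dog above every healthy dog. The scavenger receptor MRC1, the TAM receptors, their ligands and MFGE8 did not pass the test. In 1 of the 3 probe sets of GAS6 (Cfa.16570.1.S1_at) 4 of the 5 glaucoma dogs were below every healthy dog and glaucoma dog 1 was above every healthy dog, a split that the other probe sets did not show in full. Whole retina was measured, so that fewer or more cells of a type and less or more RNA per cell cannot be told apart.

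Of the 10 expressed probe sets, 0 were higher and 0 were lower in glaucoma by limma at an adjusted p under 0.05, and 2 had an unadjusted p under 0.05. Across all 18413 expressed probe sets 7.58% were higher and 9.41% were lower. The exact Wilcoxon rank sum test called 0 of the 10, and 0 of all expressed probe sets. With 5 dogs against 5 its smallest possible p is 0.00794, and its smallest adjusted p over the expressed probe sets was 0.0534. Its lack of calls therefore says nothing about the members in particular. Of the 11 probe sets under the minimum, 3 were higher and 0 were lower in the fit over all probe sets, where 1.46% of the 24447 probe sets under the minimum were higher and 1.86% were lower. The 3 were those of MSR1, CD36 and FCER1G, and 4 of the 11 had an unadjusted p under 0.05. The median difference was 0.15 over the 10 expressed probe sets and −0.02 over all expressed ones. Differences are of mean log2 intensities, glaucoma minus healthy, and adjusted p-values are from limma with Benjamini-Hochberg adjustment over all expressed probe sets or, for those under the minimum, over all probe sets.

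**Figure D1:**
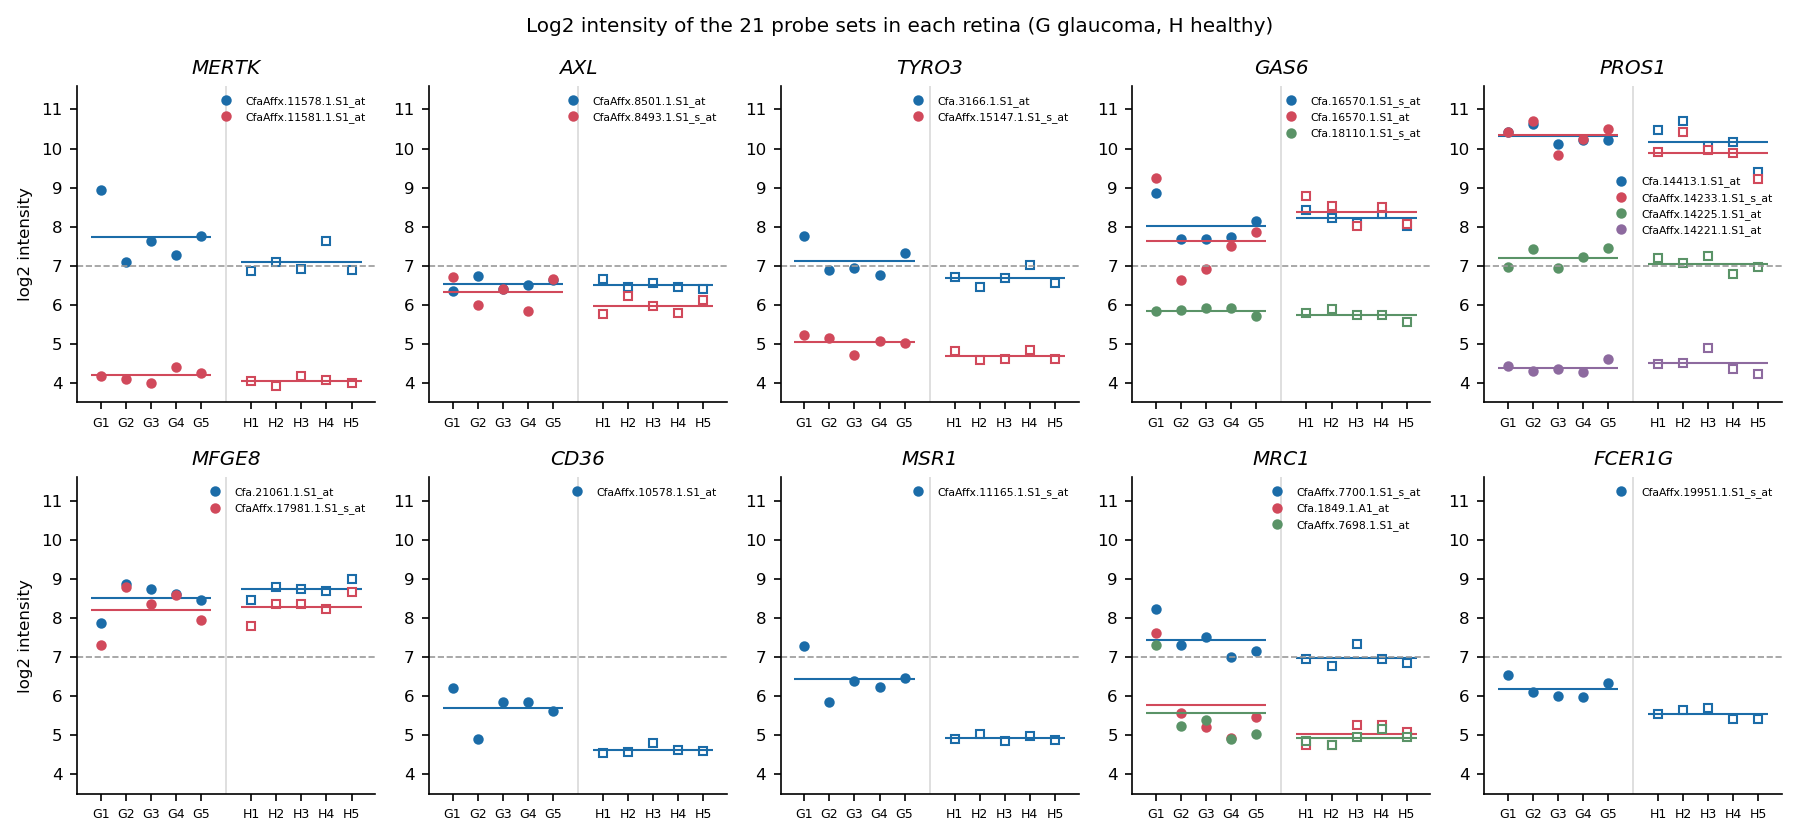
Log2 intensity (y axis) of each of the 21 probe sets in each dog (x axis, glaucoma dogs G1 to G5 as filled circles and healthy dogs H1 to H5 as open squares), with 1 colour per probe set, lines at the group means and a dashed line at the minimum of 7. In the panels of CD36, MSR1 and FCER1G every glaucoma dog lies above every healthy dog, and in the panel of GAS6 glaucoma dog 1 stands above the other 4 glaucoma dogs in both expressed probe sets.

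**Figure D2:**
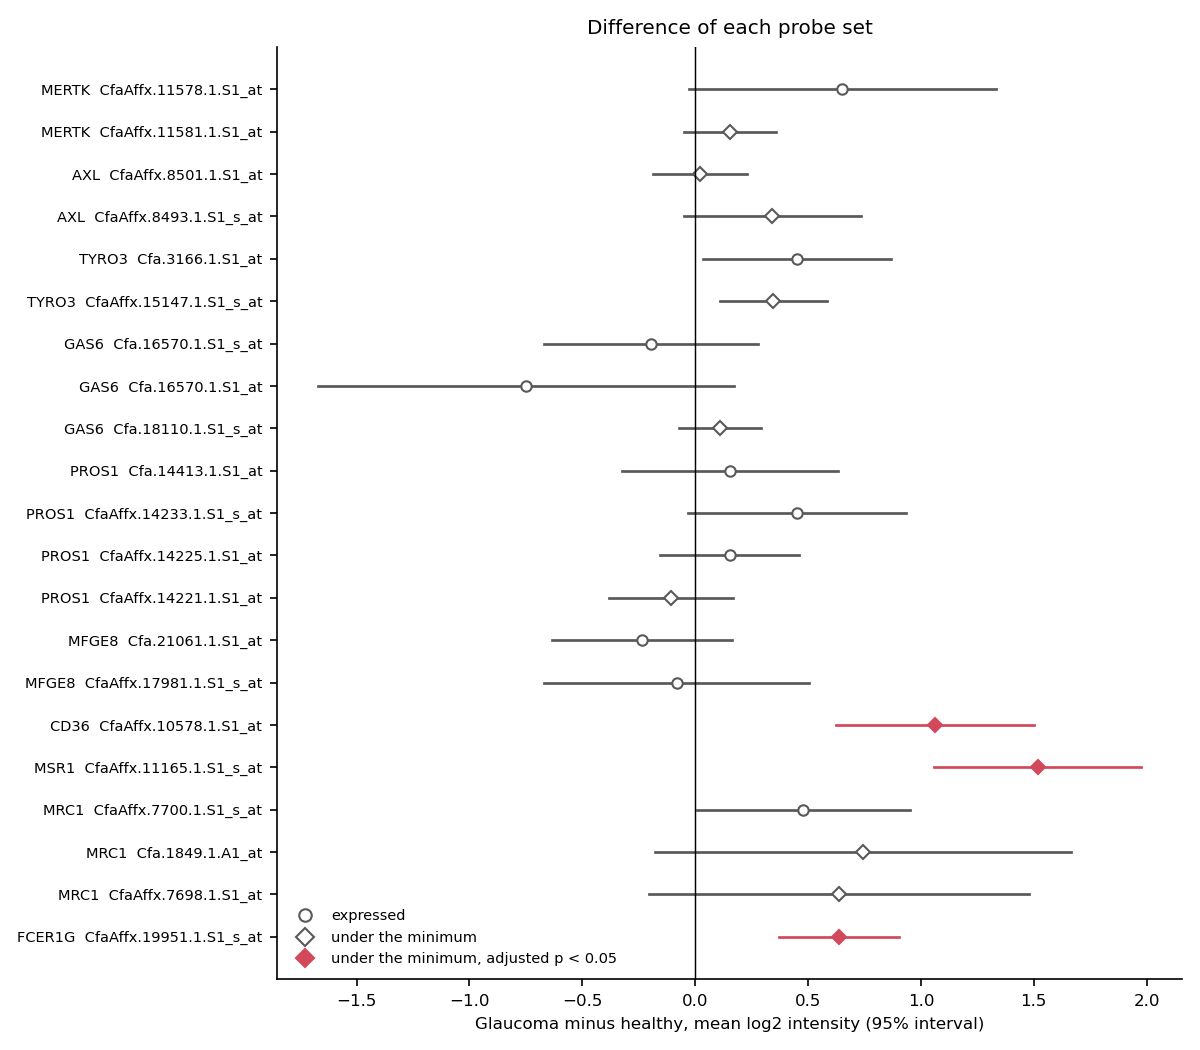
Difference of mean log2 intensity, glaucoma minus healthy (x axis), with its 95% interval from limma, for each probe set (y axis). Circles are expressed probe sets, diamonds are those under the minimum, and the 3 filled symbols, of CD36, MSR1 and FCER1G, had an adjusted p under 0.05.

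MERTK, the receptor used for outer segment uptake, had 1 expressed probe set (CfaAffx.11578.1.S1_at). Its log2 intensity was 8.93, 7.09, 7.63, 7.28 and 7.76 in glaucoma dogs 1 to 5, against 6.86, 7.11, 6.93, 7.64 and 6.90 in healthy dogs 1 to 5. Glaucoma dog 1 was the highest of all and healthy dog 4 the highest of its group, and the groups overlapped. The difference was 0.65 (SE 0.31, adjusted p = 0.171), with a 95% interval from −0.03 to 1.33. Without glaucoma dog 1 it was 0.36, and with age as a covariate it was 1.13 (adjusted p = 0.0677). The healthy dogs were all of the same age, so that the effect of age was fitted from the glaucoma dogs alone. The other probe set of MERTK (CfaAffx.11581.1.S1_at) lay between 4.01 and 4.41 in glaucoma dogs and between 3.92 and 4.18 in healthy dogs, far under the minimum, with a difference of 0.15 (adjusted p = 0.378).

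TYRO3, the TAM receptor best known from neurons, had 1 expressed probe set (Cfa.3166.1.S1_at). It measured 7.75, 6.90, 6.94, 6.77 and 7.31 in glaucoma dogs 1 to 5, against 6.72, 6.46, 6.67, 7.01 and 6.55 in healthy dogs 1 to 5. Healthy dog 4 was above 3 of the glaucoma dogs, and the remaining healthy dogs were below all of them. The difference was 0.45 (SE 0.19, adjusted p = 0.123). A second probe set under the minimum (CfaAffx.15147.1.S1_s_at) had 5.24, 5.15, 4.70, 5.08 and 5.02 in glaucoma dogs, against 4.81, 4.58, 4.62, 4.83 and 4.62 in healthy dogs. Only glaucoma dog 3 lay within the healthy range. The difference was 0.35 (SE 0.11, adjusted p = 0.0773), and without glaucoma dog 3 it was 0.43 (adjusted p = 0.0146).

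AXL, the TAM receptor that is induced in activated phagocytes, had both probe sets under the minimum in every array. CfaAffx.8501.1.S1_at lay between 6.34 and 6.73 in glaucoma dogs and between 6.40 and 6.66 in healthy dogs, with a difference of 0.02 and a 95% interval from −0.19 to 0.23. Its sign turned under 4 alternatives. CfaAffx.8493.1.S1_s_at had 6.71, 5.98, 6.40, 5.83 and 6.66 in glaucoma dogs, against 5.77, 6.22, 5.97, 5.79 and 6.13 in healthy dogs. Glaucoma dogs 1, 3 and 5 were above all healthy dogs and dogs 2 and 4 were within the healthy range, and the difference was 0.34 (adjusted p = 0.305).

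GAS6, the ligand that binds all TAM receptors, showed the widest spread among glaucoma dogs of any expressed probe set of these genes. Probe set Cfa.16570.1.S1_at had 9.25 in glaucoma dog 1 and 6.63, 6.91, 7.49 and 7.85 in dogs 2 to 5, against 8.79, 8.53, 8.01, 8.50 and 8.07 in healthy dogs 1 to 5. Glaucoma dog 1 was above every healthy dog and the other 4 were below every healthy dog. The difference over all dogs was −0.75 (SE 0.42, adjusted p = 0.244), with a 95% interval from −1.67 to 0.17. Without glaucoma dog 1 the difference was −1.15 (adjusted p = 0.0113), and the call depended on this dog. Without glaucoma dog 1 and healthy dog 4 it was −1.12 (adjusted p = 0.0270), without both Shiba Inus −0.96 (adjusted p = 0.0254), and with array weights −1.03 (adjusted p = 0.0141). Without both Basset Hounds it was −0.47 (adjusted p = 0.522), and with age as a covariate −0.15 (adjusted p = 0.869). The effect of age was again fitted from the glaucoma dogs alone.

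A second expressed probe set of GAS6 (Cfa.16570.1.S1_s_at) measured 8.85, 7.67, 7.69, 7.74 and 8.14 in glaucoma dogs 1 to 5, against 8.43, 8.21, 8.10, 8.31 and 8.02 in healthy dogs. Glaucoma dog 1 was again the highest of all, dogs 2, 3 and 4 were below all healthy dogs, and dog 5 lay within their range. The difference was −0.20 (SE 0.22, adjusted p = 0.565) and −0.40 without glaucoma dog 1 (adjusted p = 0.0581). Probe set Cfa.18110.1.S1_s_at lay between 5.72 and 5.91 in glaucoma dogs and between 5.55 and 5.89 in healthy dogs, under the minimum, with a difference of 0.11 (adjusted p = 0.496). Probe sets whose names end in _s_at can match several transcripts, and the 3 probe sets of GAS6 were not averaged.

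PROS1 encodes protein S, a vitamin K-dependent plasma protein and TAM ligand. Its probe set Cfa.14413.1.S1_at lay between 10.11 and 10.62 in glaucoma dogs and between 9.40 and 10.70 in healthy dogs, with a difference of 0.15 (adjusted p = 0.661). Probe set CfaAffx.14233.1.S1_s_at had 10.42, 10.70, 9.83, 10.24 and 10.49 in glaucoma dogs, against 9.92, 10.43, 9.96, 9.90 and 9.23 in healthy dogs. Healthy dog 5 was the lowest in both and the groups overlapped in both. The difference of the second was 0.45 (SE 0.22, adjusted p = 0.180), with a 95% interval from −0.03 to 0.93. The remaining 2 probe sets of PROS1 had differences of 0.15 (CfaAffx.14225.1.S1_at, adjusted p = 0.481) and, under the minimum, −0.11 (CfaAffx.14221.1.S1_at, adjusted p = 0.703).

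MFGE8 binds phosphatidylserine and alpha-v integrins and takes part in the timing of outer segment uptake in mice. Probe set Cfa.21061.1.S1_at had 7.87, 8.87, 8.73, 8.62 and 8.46 in glaucoma dogs, against 8.47, 8.79, 8.76, 8.70 and 9.00 in healthy dogs. Glaucoma dog 1 was the lowest of all and the others lay within or near the healthy range. The difference was −0.24 (SE 0.18, adjusted p = 0.395). In CfaAffx.17981.1.S1_s_at glaucoma dog 1 was the lowest as well, at 7.30, with the other glaucoma dogs between 7.95 and 8.80 and the healthy dogs between 7.80 and 8.67. Its difference was −0.08 (adjusted p = 0.864) and 0.14 without glaucoma dog 1 (adjusted p = 0.658).

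MSR1, the class A scavenger receptor of macrophages, had the largest difference of the 21 probe sets (CfaAffx.11165.1.S1_s_at). Its log2 intensity was 7.28, 5.87, 6.39, 6.23 and 6.48 in glaucoma dogs 1 to 5, against 4.90, 5.04, 4.86, 4.98 and 4.88 in healthy dogs 1 to 5. Every glaucoma dog was above every healthy dog, and only glaucoma dog 1 passed the minimum. The means were 6.45 ± 0.52 in glaucoma and 4.93 ± 0.08 in healthy retina (SD, n = 5 each), which differed by 1.52 (SE 0.21, adjusted p = 0.00124). Without glaucoma dog 1 the difference was 1.31.

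CD36, a receptor for oxidized lipoproteins and long-chain fatty acids, had 1 probe set (CfaAffx.10578.1.S1_at), under the minimum in all 10 arrays. It had 6.21, 4.90, 5.86, 5.85 and 5.63 in glaucoma dogs, against 4.54, 4.56, 4.81, 4.61 and 4.61 in healthy dogs. All glaucoma dogs were above all healthy dogs, and glaucoma dog 2 came nearest to them. The difference was 1.06 (SE 0.20, adjusted p = 0.00744), between means of 5.69 ± 0.49 in glaucoma and 4.63 ± 0.11 in healthy retina (SD, n = 5 each).

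FCER1G, the common gamma chain that carries the signal of several Fc receptors, had 1 probe set (CfaAffx.19951.1.S1_s_at), also under the minimum in all 10 arrays. It had 6.55, 6.10, 6.00, 5.98 and 6.33 in glaucoma dogs, against 5.56, 5.66, 5.71, 5.43 and 5.42 in healthy dogs. The groups did not overlap, and glaucoma dogs 1 and 5 were the highest. The difference was 0.64 (SE 0.12, adjusted p = 0.00803), under a 2-fold change.

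The 3 calls held when each of the 10 dogs was left out in turn, with the largest adjusted p at 0.00526 for MSR1, 0.0241 for CD36 and 0.0265 for FCER1G. All lie under the minimum set for expression. Among probe sets under the minimum, 2.36% had every glaucoma dog above every healthy dog. The exact Wilcoxon test did not call the 3 (adjusted p = 0.0899 for each). Their unadjusted p of 0.00794 is the smallest that this test can give with 5 dogs against 5, and no probe set had an adjusted p below theirs in that fit. In an alternative chosen after seeing the data, the 3′ to 5′ signal ratio of the dog actin and GAPDH control pairs was a covariate. The differences were then 1.001 for CD36 (adjusted p = 0.0864), 0.56 for FCER1G (adjusted p = 0.108) and 1.43 for MSR1 (adjusted p = 0.0241), so that only MSR1 was past the test. This log2 ratio was 0.94 ± 0.14 in glaucoma and 1.19 ± 0.22 in healthy retina (SD, n = 5 each, exact two-sided permutation p = 0.0556). The ratio had been set as a covariate without naming the control pairs, and it was first computed over all 4 pairs. That ratio was 1.73 ± 0.22 in glaucoma and 1.74 ± 0.30 in healthy retina (exact two-sided permutation p = 0.968), and all 3 calls held.

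MRC1, the macrophage mannose receptor, had 1 expressed probe set (CfaAffx.7700.1.S1_s_at). It had 8.24, 7.31, 7.52, 7.02 and 7.17 in glaucoma dogs, against 6.96, 6.77, 7.33, 6.94 and 6.85 in healthy dogs. Glaucoma dog 1 was the highest, and healthy dog 3 lay above 3 glaucoma dogs. The difference was 0.48 (SE 0.21, adjusted p = 0.148) and 0.28 without glaucoma dog 1.

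Both other probe sets of MRC1 were under the minimum except in glaucoma dog 1. Cfa.1849.1.A1_at had 7.63 in this dog and 4.92 to 5.58 in the other glaucoma dogs, against 4.75 to 5.26 in healthy dogs. CfaAffx.7698.1.S1_at had 7.32 in this dog and 4.90 to 5.38 in the other glaucoma dogs, against 4.76 to 5.17 in healthy dogs. The differences were 0.74 (adjusted p = 0.345) and 0.64 (adjusted p = 0.382), and 0.28 and 0.20 without glaucoma dog 1.

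Marker genes of retinal cell types were read as mean log2 levels of fixed lists. The list of pigment epithelium (18 expressed of 20 genes, among them RPE65 and TTR) was at 10.72 in glaucoma dog 1 and 7.62 to 8.81 in the other glaucoma dogs, against 9.87 in healthy dog 4 and 7.23 to 7.61 in the other healthy dogs. By limma 0 of its 18 genes passed the test between groups, and 4 had an unadjusted p under 0.05. RPE65, the visual cycle isomerase, had 13.37, 10.27, 8.76, 11.51 and 11.95 in glaucoma dogs, against 7.07, 8.57, 6.46, 13.02 and 6.38 in healthy dogs. The tissue was labelled neural retina, and glaucoma dog 1 and healthy dog 4 had the highest levels of this list. The same pair of dogs was the highest of its group for the expressed probe set of MERTK, for both probe sets of TYRO3 and for both probe sets of MRC1 under the minimum. This was not so for the expressed probe set of MRC1, where healthy dog 3 was the highest healthy dog (7.33). In both expressed probe sets of GAS6 it was healthy dog 1 (8.79 and 8.43). Their part in these results was not tested beyond leaving both out, which gave 0.49 for MERTK (adjusted p = 0.0680) and 0.38 for the expressed probe set of TYRO3 (adjusted p = 0.0985). MSR1, CD36 and FCER1G stood at 4.98, 4.61 and 5.43 in healthy dog 4, within the range of the other healthy dogs. Without both dogs their adjusted p-values by limma were 0.000661, 0.0209 and 0.0220. Leaving both out did not even this list between the groups. It was still at 7.62 to 8.81 in the other glaucoma dogs and 7.23 to 7.61 in the other healthy dogs. The part of pigment epithelium in the levels of MSR1, CD36 and FCER1G was therefore not tested.

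**Figure D3:**
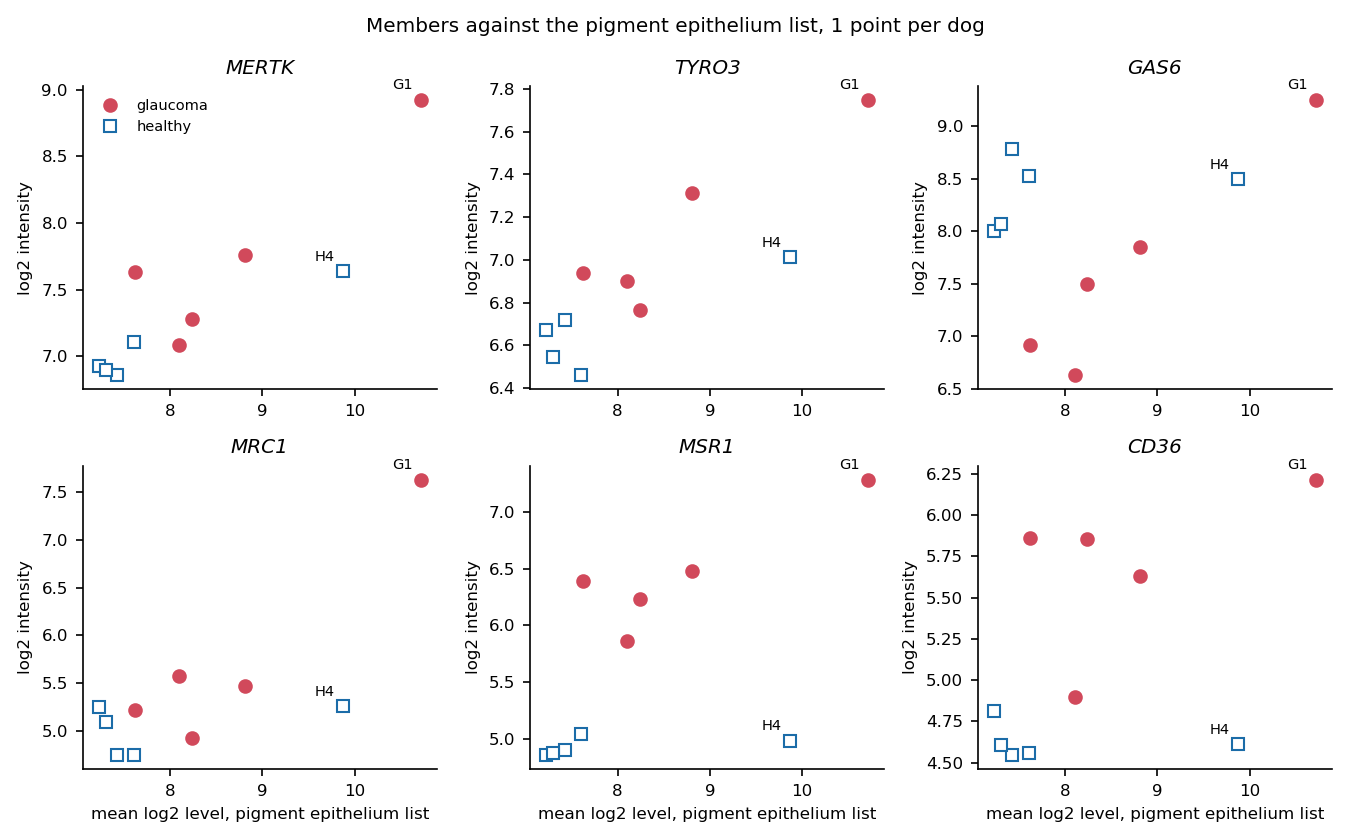
Log2 intensity of 6 genes (y axes) against the mean log2 level of the pigment epithelium list (x axes), with 1 point per dog, glaucoma dogs as filled circles and healthy dogs as open squares. Each panel shows the probe set of the gene with the highest mean, except for MRC1 and GAS6. For these the probe set with the largest difference is shown, Cfa.1849.1.A1_at (under the minimum) and Cfa.16570.1.S1_at. Glaucoma dog 1 (G1, list level 10.72) is the highest in all 6 panels. Healthy dog 4 (H4, 9.87) is the highest healthy dog for MERTK, TYRO3 and, by a narrow margin, MRC1, and lies among the other healthy dogs for GAS6, MSR1 and CD36.

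The list of microglia and macrophages (13 expressed of 22 genes, among them CSF1R and AIF1) was at 8.52 to 9.49 in glaucoma dogs and 7.00 to 7.40 in healthy dogs, and 11 of its 13 genes were higher in glaucoma. TMEM119 (difference 0.14) and P2RY12 (−0.37), which mark resident microglia, did not pass. ITGAM, PTPRC and SPI1 were under the minimum, though the study lists PTPRC as higher in glaucoma. MSR1, CD36, MRC1 and FCER1G are genes of microglia and macrophages, though not all of them are limited to these cells. The part of cell number in their levels was not tested. Glaucoma dog 1 was the highest for the list as well as for MSR1, CD36, FCER1G and MRC1. The list of photoreceptors was at 8.65 in glaucoma dog 1 and 10.16 to 11.56 in the other glaucoma dogs, against 11.37 to 11.72 in healthy dogs. The astrocyte list (3 of 5 genes higher, GFAP and AQP4 among them) was at 8.12 to 9.45 in glaucoma dogs and 7.11 to 7.55 in healthy dogs. Of the list of T cells, B cells and neutrophils (15 genes, 12 on the array) only CD2 and CD3E were expressed. Both were higher, with mean levels of 6.93 to 7.45 in glaucoma dogs and 6.33 to 6.68 in healthy dogs, near the minimum. The study labelled retinal sections for CD3 and CD79 and proposes that leukocyte entry is rare at most. The part of these cells in the levels of MSR1, CD36 and FCER1G was not tested. The Müller glia list was at 11.54 to 12.25 in glaucoma dogs and 10.83 to 11.52 in healthy dogs. For endothelial cells and pericytes (2 of 8 genes higher) the levels were 7.90 to 8.40 and 8.03 to 8.22. The ganglion cell list (9 of 12 genes lower, 1 higher) was at 7.74 to 9.32 in glaucoma dogs and 9.92 to 10.62 in healthy dogs. The part of ganglion cells in the falls of ELMO1, EDIL3 and ADGRB3 described below was not tested. None of the mast cell and basophil genes on the array (7 of 9 listed) was expressed, although these cells also use FCER1G. FCER1G itself lay under the same minimum. Within this list FCER1A reached 7.87 at its highest, with means of 6.41 in glaucoma and 5.92 in healthy retina. The part of these cells was not tested.

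The other genes of the pathway were taken from 7 lists of 147 genes, of which 77 were expressed. Of these 24 were higher and 3 were lower in glaucoma, against 8.04% higher and 8.65% lower over all 7900 expressed genes. The median difference was 0.47 over the 77 genes and −0.01 over all expressed genes. Several complement and microglial genes of these lists were chosen by the study on the same samples, so that their direction is not independent evidence. The same holds for the 3 lower genes, ELMO1, EDIL3 and ADGRB3 (named BAI3 in the study). With the 2-pair control ratio as a covariate 12 genes were higher, and with the exact Wilcoxon test, which called no expressed probe set, 0.

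Of 16 bridging proteins and signals, 7 were higher and 1 was lower. C3, the central complement protein that tags targets for uptake, was at 13.70 ± 0.32 in glaucoma and 9.09 ± 0.66 in healthy retina (SD, n = 5 each), which differed by 4.62 (SE 0.29, adjusted p = 1.78e-05). C1QC and C1QA, chains of the complement starter C1q, differed by 3.44 (adjusted p = 7.1e-05) and 2.23 (adjusted p = 0.000219). EDIL3, a phosphatidylserine-binding relative of MFGE8, was the member that fell, at 5.56 ± 0.85 in glaucoma and 7.28 ± 0.11 in healthy retina, a difference of −1.72 (adjusted p = 0.00584). TGM2 (0.94) and TULP1 (−0.77) had the largest differences that did not pass.

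Of 11 genes listed as engulfment receptors or their adaptors, 5 were higher and 1 was lower. TYROBP, an adaptor of the same kind as FCER1G, differed by 2.03 (SE 0.23, adjusted p = 0.000251) and its partner TREM2 by 1.32 (SE 0.20, adjusted p = 0.00152). ADGRB3, an adhesion receptor of neurons, fell to 7.19 ± 0.67 in glaucoma, against 8.86 ± 0.19 in healthy retina (adjusted p = 0.00247). STAB1 (0.60) and MEGF10 (0.54) did not pass.

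Of 10 other scavenger receptors, 4 were higher and 6 did not pass. CD163, the hemoglobin receptor of macrophages, was at 7.79 ± 1.05 in glaucoma and 4.69 ± 0.30 in healthy retina, a difference of 3.10 (SE 0.42, adjusted p = 0.000786). CXCL16, which is both a chemokine and a receptor for oxidized lipoprotein, differed by 2.13 (adjusted p = 0.000961) and the lysosomal protein CD68 by 0.91 (adjusted p = 0.0146). COLEC12 (0.72) and STAB1 did not pass, and SCARB1 and SCARB2 had differences of 0.12 and −0.07.

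Of 7 expressed Fc receptor and signalling genes around FCER1G, FCGR1A and FCGRT were higher. FCGR1A, the high-affinity IgG receptor that signals through FCER1G, was at 8.87 ± 0.66 in glaucoma and 6.58 ± 0.38 in healthy retina, a difference of 2.30 (SE 0.30, adjusted p = 0.000559). FCGRT, the neonatal Fc receptor, which pairs with beta-2 microglobulin and not with FCER1G, differed by 1.24 (adjusted p = 0.00105), while the kinases FGR (0.56, adjusted p = 0.0507) and LYN (0.94, adjusted p = 0.0908) and the adaptor LCP2 (0.62) did not pass.

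Of 21 genes of the engulfment machinery, 5 were higher and 1 was lower. ELMO1, which acts with DOCK1 to activate Rac, fell to 6.76 ± 0.68 in glaucoma, against 8.75 ± 0.48 in healthy retina, a difference of −1.99 (SE 0.33, adjusted p = 0.00225). ARPC1B, an actin nucleation subunit, differed by 1.45 (adjusted p = 0.00572) and VAV1, a Rac exchange factor, by 0.64 (adjusted p = 0.00935). RAC2 (0.70) and PTK2 (−0.68) did not pass.

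In the response to engulfed lipid LPCAT3, a phospholipid acyltransferase, was the only one of 7 genes past the test, with a difference of 0.81 (adjusted p = 0.0402). The lipid-sensing nuclear receptor PPARA (0.59) and TGFB1 (0.36), a cytokine that phagocytes release on uptake, did not. The remaining TAM pathway genes gave 0 calls of 7 by limma, 4 with an unadjusted p under 0.05. The adaptor GRB2 was at 0.34 (adjusted p = 0.0884) and the kinase PTK2 at −0.68 (adjusted p = 0.101), with VKORC1 and GGCX, which serve the vitamin K-dependent modification of GAS6 and protein S, at 0.81 (adjusted p = 0.0787) and 0.39 (adjusted p = 0.150).

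**Figure D4:**
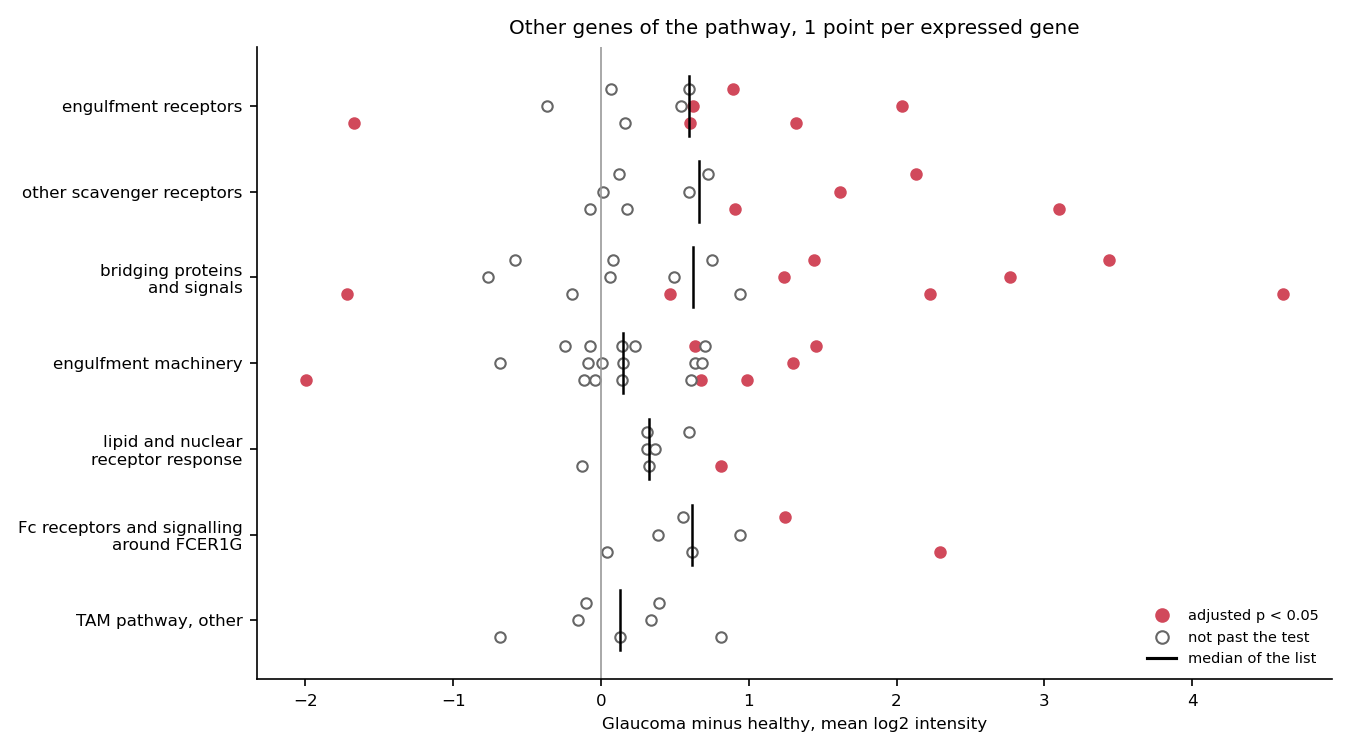
Difference of mean log2 intensity, glaucoma minus healthy (x axis), of the expressed genes of each list (y axis), with 1 point per gene, filled where the adjusted p was under 0.05, and a vertical bar at the median of the list. The largest positive differences are those of C3 (4.62), C1QC (3.44) and CD163 (3.10), and the lists of scavenger and engulfment receptors have medians of 0.66 and 0.60.

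Likeness of profile was measured as the root mean square difference between log2 profiles centred on their own mean, over the 10 arrays and with 1 probe set per gene. The most alike to MSR1 were NPL (0.18), MMP19 (0.19) and RGCC (0.21), while MSR1 itself had an SD of 0.87 over the arrays. CD36 was most like IFI44, LMAN2 and CROT, at 0.21 to 0.22, and FCER1G most like SHISA5, CYLD and SLC38A5, at 0.11 to 0.13. For GAS6 (Cfa.16570.1.S1_at) the nearest were ITGA6, ATP1B1 and PLCL1, at 0.29 to 0.33. For MERTK they were SOX9 (0.14), SGMS1 and MOSPD2 (0.15). These values describe the 10 arrays and were not tested.

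The 10 arrays had median intensities from 77.3 to 80.9 and 15907 to 16312 probe sets above the minimum. Quantile normalization makes arrays alike in these values, so that they do not describe array quality. Glaucoma dog 1 correlated with the other glaucoma dogs at r = 0.849 to 0.917 across probe sets, while healthy dogs correlated with each other at 0.953 to 0.982. Arrays have no sequencing depth, and their number, 5 per group, limits the precision.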

How the data were processed

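Affymetrix Canine genome 2.0 arrays, 1 per dog, were used. The raw data were normalized by the authors with RMA (background subtraction, quantile normalization and summary by probe set), and the deposited intensity values are on a linear scale. The version of the RMA software and a genome build are not given in the sources used here. Log2 was taken, and 111 AFFX and 64 RPTR control probe sets were left out of 43035. Genes came from the platform annotation, in which 29254 probe sets carry 1 symbol and 439 carry several, and those with several were not named.

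Groups were compared with limma 3.58.1 (lmFit and eBayes) in R 4.3.3 on the 18413 probe sets with log2 above 7 in at least 2 arrays, with Benjamini-Hochberg adjustment and calls at an adjusted p under 0.05. The study used a rank sum test and SAM with a 2-fold minimum. Members under the minimum were read from the same fit over all 42860 probe sets. Intervals are 95% intervals of the limma difference. Limma p-values set the group difference against the spread between dogs of a group, moderated across probe sets. They do not separate disease from breed or age. The script was tested on simulated data.

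The members and the gene lists were chosen with earlier results of these data known. All 10 genes are named with every probe set. In each pathway list named are the 3 genes of smallest adjusted p and, among those not past the test, the 2 of largest difference, each gene by its expressed probe set with the highest mean, and EDIL3, SCARB1, SCARB2 and GGCX were picked after their values were seen. Marker lists are given by mean level, and a few of their genes by name. Alternatives were other filters, normalizations, variance models and tests, array weights, age and the control 3′ to 5′ ratio as covariates, the replicate number as a block, and breeds or dogs left out. As the healthy dogs were all of the same age, the fit with age does not separate age from disease.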

Additional observations from a re-analysis of the deposited data

Results flagged for a closer look

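In 3 of 42 groups of 5 dogs 1 dog stood apart from the rest by Dixon's test at its critical value of 0.71, which chance does in about 1 group in 20. For MRC1 it was glaucoma dog 1 in 2 probe sets. Cfa.1849.1.A1_at had a log2 intensity of 7.63 in this dog and 4.92 to 5.58 in the other glaucoma dogs, and CfaAffx.7698.1.S1_at had 7.32 and 4.90 to 5.38. For CD36 it was healthy dog 3, at 4.81 beside 4.54 to 4.61 in the other healthy dogs.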

How the results depend on the processing

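The calls of MSR1, CD36 and FCER1G passed the test in 22, 21 and 20 of 23 alternatives, and the values lost were those of the exact Wilcoxon test, the 2-pair control ratio (CD36 and FCER1G) and the 2-fold minimum (FCER1G). Of the 11 member probe sets under the minimum 3 were higher, which became 0 with the Wilcoxon test, 1 with the 2-pair ratio, 2 with the 2-fold minimum and 3 to 4 when a dog was left out. It was 4 without glaucoma dog 3, with array weights and without both Basset Hounds, where TYRO3 CfaAffx.15147.1.S1_s_at was added. Of the expressed member probe sets, 1 (GAS6 Cfa.16570.1.S1_at) was lower with array weights, without both Shiba Inus, without glaucoma dog 1 and healthy dog 4 and without glaucoma dog 1 (0 to 1 with a dog left out), and 0 were higher in all 10 cases. Signs turned for values near 0. AXL CfaAffx.8501.1.S1_at was −0.14 with age and −0.033 to 0.065 with a dog left out, below 0 without glaucoma dog 2, glaucoma dog 5 or healthy dog 5. GAS6 Cfa.16570.1.S1_s_at was 0.030 with age and 0.0065 without both Basset Hounds. PROS1 was −0.035 to 0.29 with a dog left out (Cfa.14413.1.S1_at, below 0 only without healthy dog 5) and −0.070 with age (CfaAffx.14225.1.S1_at). MFGE8 CfaAffx.17981.1.S1_s_at was 0.089 with array weights, 0.019 without both Shiba Inus, 0.13 without glaucoma dog 1 and healthy dog 4, and −0.23 to 0.14 with a dog left out, above 0 without glaucoma dog 1 or healthy dog 5. The cause was not tested.

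Over all expressed probe sets the counts of 1396 higher and 1732 lower became 544 and 574 with the 2-fold minimum and 408 and 522 with the 2-pair ratio. They became 0 and 0 with the Wilcoxon test, where the smallest adjusted p was 0.0534. The lower count became 2811 with array weights, 886 with age and 1114 with the replicate block. With a dog left out, 866 to 1606 were higher and 1122 to 2121 lower, the lowest of both without healthy dog 2. Of the other pathway genes, 24 higher and 3 lower became 0 and 0 with the Wilcoxon test. The higher count was 15 with the 2-fold minimum and 12 with the 2-pair ratio, and the lower count 5 with array weights. With a dog left out, 20 to 32 were higher and 3 to 4 lower.

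The replicate numbers do not pair the dogs. Deviations of same-numbered dogs correlated at 0.07, −0.04, −0.02, −0.21 and −0.24, and none of the 5 glaucoma dogs was most like the healthy dog of its number. With the replicate number as a block MSR1, CD36 and FCER1G had adjusted p-values of 0.0081, 0.0185 and 0.0365, and it changed no call of a member.

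All 3 calls rest on probe sets under the minimum, where signal is dim. The 2-pair ratio was chosen after seeing the data. Probe sets of 1 gene differed in direction for GAS6 and PROS1.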
